A study of Mus musculus with 12 samples.

Results

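The genes described here are 10 that encode neuropeptides for which neurons of the hypothalamus are best known: *Oxt*, *Avp*, *Pmch*, *Hcrt*, *Trh*, *Crh*, *Pomc*, *Agrp*, *Cartpt* and *Gal*. They were selected on measured values of these data, namely the very high level of *Oxt* in 1 sample labelled Fn14ko, and every probe that the array's annotation gives to one of the 10 symbols was taken. All 10 of 10 symbols were found among the 29608 genes of the array, 9 with 1 probe and *Hcrt* with 2. Because the values of *Oxt* led to this choice, they are given as a description with no test, and the questions asked were how each gene varied over the 12 samples and whether the other 9 followed *Oxt*.

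Total RNA from the hippocampus of adult female mice of about 12 weeks, in diestrus, was labelled with Cy3 or Cy5 and hybridized to 6 Agilent arrays, 4 samples in each of 3 groups. The MRL/lpr group, which develops a disease like lupus, has the MRL background and a *Fas* gene inactivated by mutation. The mice labelled Fn14ko share that background and *Fas* mutation and lack a working *Tnfrsf12a*, the gene of Fn14, which is the receptor of the cytokine TWEAK. MRL/+ mice, labelled MRL/MpJ, have the MRL background without lupus. MRL/lpr and Fn14ko animals came from backcrossing and were littermates, whereas MRL/+ animals were purchased, so origin and group cannot be told apart in the comparisons with MRL/+. Each array carried 2 samples of 1 group, replicate 1 or 3 in Cy3 beside replicate 2 or 4 in Cy5, and precision is limited by there being 2 arrays for each group. Both arrays of a group were on 1 slide that held no other group, so differences between slides and between groups cannot be separated by any model. The source and tissue labels give hippocampus for all 12 samples, while the free-text descriptions mention cortex.

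Neuropeptides are cut from larger precursor proteins, packed into dense granules and released to act on G protein-coupled receptors of nearby or distant cells. Neurons of the paraventricular and supraoptic nuclei make oxytocin and vasopressin, those of the lateral hypothalamus make melanin-concentrating hormone and the orexins, and those of the arcuate nucleus make the proopiomelanocortin and agouti-related peptides. The hippocampus receives fibres from several of these neurons and carries receptors for their peptides, but it is not where the cell bodies of oxytocin, orexin or melanin-concentrating hormone neurons lie.

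A level is given below as a multiple of the channel median, that is, the background-subtracted intensity of a probe divided by the median of all probe spots in the same dye of the same array. A probe was called well above background by the scanner software. The median spot was 12.6, 4.53, 1.93 and 1.73 times its local background in MRL/lpr replicates 1 to 4 and 4.42 to 6.06 times in the other 8 samples. MRL/lpr replicates 3 and 4 shared the array of weakest signal, and there the median negative control, a probe that matches no transcript, read 0.465 and 1.09 times the channel median. The median negative control read 1.38 and 1.31 in MRL/+ replicates 2 and 4, the Cy5 samples of that group, compared with 0.0264 to 0.533 in the remaining 8 samples. Low levels in these 4 samples therefore lie within the reading of empty probes. *Fas*, mutated in 2 of the groups, read 0.619, 0.411, 0.364 and 0.831 in MRL/lpr, 1.22, 0.907, 1.54 and 1.09 in the samples labelled Fn14ko, and 2.36, 1.23, 1.24 and 1.48 in MRL/+. The probe for *Tnfrsf12a* was well above background in all 4 samples labelled Fn14ko, at 4.63, 3.49, 5.08 and 2.91. It read 0.809 to 7.08 in MRL/lpr and 3.43 to 12.9 in MRL/+. The paper states that Fn14ko mice lack expression of this gene. Where the probe lies relative to the deleted part of the gene is not given in the sources used here, so it checks nothing. For *Fas* the samples labelled Fn14ko overlapped with MRL/+, so neither gene settles which of these 2 groups is which. The paper's tables give *Oxt* and *Avp* as more variable in MRL/+ than in the other groups, whereas here the samples labelled Fn14ko varied most. Whether the labels of Fn14ko and MRL/+ were exchanged cannot be told from *Fas* and *Tnfrsf12a*. The groups below, including those of the high *Oxt* and *Avp* values, are those of the labels alone.

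The labelled tissue was compared with marker genes of hippocampal neurons. *Prox1*, a transcription factor of dentate granule cells, read 2.85, 2.30, 7.34 and 5.24 in MRL/lpr and 0.242 to 0.681 in the other 8 samples. *Dsp*, which encodes desmoplakin and marks the same cells, read 3.73, 2.74, 9.97 and 5.67 in MRL/lpr and 0.105 to 0.622 in the other 8. *Fibcd1*, a marker of CA1 neurons, read 1.34 to 9.52 in MRL/lpr and 0.386 to 0.739 in the other 8 samples. These 3 of 14 hippocampal genes, and *C1ql2*, named after its values were seen, were higher in every MRL/lpr sample than in any other sample. The share of all genes with this pattern is not given. In the other direction, 26.3% of all genes were lower in every MRL/lpr sample than in any sample labelled Fn14ko. Non-overlap was thus common, and the count is a description. *Prox1*, *Dsp* and *Fibcd1* were well above background in only 2 of 4 samples labelled Fn14ko and 2 of 4 MRL/+ samples. Others of the 14, named after their values were seen, read lower in MRL/lpr than in Fn14ko. *Pcp4* read 107, 119, 10.4 and 4.32 in MRL/lpr, 163 to 280 in the samples labelled Fn14ko and 49.8 to 220 in MRL/+, and *Wfs1* read 76.8, 99.8, 5.92 and 3.51, 108 to 147, and 28.0 to 103. Neither passed the threshold used below (adjusted p = 0.0549 and 0.0718 against Fn14ko), and both overlapped with MRL/+. *Tdo2*, a dentate marker singled out after its values were seen, was well above background in 2 MRL/lpr samples and in 0 of the other 8. *Tbr1*, a transcription factor of deep cortical layers, read 7.56, 6.80, 1.26 and 1.02 in MRL/lpr and 34.2 to 46.4 in the samples labelled Fn14ko. Single markers therefore differed between the groups, and their part in the results below was not tested.

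*Oxt*, which encodes oxytocin and its carrier neurophysin, read 248, 15.1, 2.19 and 1.32 across Fn14ko replicates 1 to 4. The MRL/+ samples gave 2.32, 1.84, 2.04 and 2.05, whereas the MRL/lpr samples gave 1.69, 1.05, 0.851 and 0.782. Replicates 1 and 2 labelled Fn14ko, which shared an array, stood above all other samples, replicates 3 and 4 of the same label lay in or below the range of MRL/+, and every MRL/lpr sample lay below every MRL/+ sample. *Oxt* was not well above background in MRL/lpr replicates 3 and 4 and MRL/+ replicates 2 and 4. The order and spread of these 2 groups are therefore those of the readings. Before scaling, the *Oxt* spot had a mean foreground of 41551 over a local background of 41.5 in Fn14ko replicate 1 and of 2376 over 35.0 in replicate 2, with no saturated spot in either. The same spot had a foreground of 328 and 178 in replicates 3 and 4, 262 to 384 in MRL/+ and 47.8 to 500 in MRL/lpr. The group means were 66.7 ± 121 in Fn14ko, 2.06 ± 0.197 in MRL/+ and 1.09 ± 0.415 in MRL/lpr (SD, n = 4 each). The SD of the samples labelled Fn14ko was 182% of their mean, compared with 9.57% in MRL/+, so the order of the means of Fn14ko and MRL/+ rested on 1 array. The level in Fn14ko replicate 1 was 113 times the median of the other 3 samples of that label, or 141, 30.2 and 28.7 times when replicate 2, 3 or 4 was left out. In bulk RNA of this kind, more cells that express a gene and more RNA per cell cannot be told apart.

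*Avp*, which encodes vasopressin, lies next to *Oxt* on chromosome 2 and is made by separate neurons of the same nuclei. It read 42.9, 3.77, 2.14 and 1.86 across Fn14ko replicates 1 to 4, 3.01, 0.877, 0.798 and 2.99 in MRL/lpr, and 1.64, 2.80, 0.943 and 3.73 in MRL/+. Fn14ko replicate 1 was the highest of the 12 samples by 11.4 times, and without it the 3 groups overlapped throughout. The means were 12.7 ± 20.2, 1.92 ± 1.25 and 2.28 ± 1.23 (SD, n = 4) in Fn14ko, MRL/lpr and MRL/+. The probe was well above background in 11 of 12 samples, the most among the 10 genes. The *Oxt* probe lies at chr2:130402665-130402724 on the plus strand and the *Avp* probe, 60 bases long over a genomic span of 266 bases, at chr2:130406552-130406817 on the minus strand (mm9), 3828 bases apart. The *Avp* probe therefore joins separate stretches of the genome, as spliced RNA does, and so does that of *Cartpt*, whose 60 bases span 990 bases at chr13:100668967-100669956 on the minus strand. Both sequences are shown, in lower case and 5′ to 3′, because they are the members' probes that spliced RNA matches over their full length and unspliced genomic sequence does not.
Avp: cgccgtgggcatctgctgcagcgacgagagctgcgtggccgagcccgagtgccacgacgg
Cartpt: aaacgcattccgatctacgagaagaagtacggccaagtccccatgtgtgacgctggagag

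*Pmch*, the precursor of melanin-concentrating hormone, which promotes feeding and sleep, showed the steepest contrast with levels as read. It read 71.0, 0.945, 0.522 and 0.545 across Fn14ko replicates 1 to 4. In MRL/lpr it read 0.219, 0.360, 0.485 and 0.795, with no sample well above background, and in MRL/+ 0.412, 0.895, 0.275 and 0.976. Only Fn14ko replicate 1 was high, and the other 11 samples lay between 0.219 and 0.976. *Hcrt*, the precursor of the orexins, which sustain wakefulness, read 18.1, 2.94, 0.448 and 0.494 across Fn14ko replicates 1 to 4 as the mean of its 2 probes. It read 0.147 to 0.757 in MRL/lpr and 0.219 to 0.646 in MRL/+, so that both samples of the first Fn14ko array were above the other 10. The 2 probes disagreed. The probe at chr11:100623007-100623066 read 35.9, 5.34, 0.785 and 0.665 in the samples labelled Fn14ko, while that at chr11:100622484-100622543 read 0.254, 0.541, 0.111 and 0.322 and was well above background in 1 of 12 samples (both minus strand, mm9). The level of *Hcrt* therefore came from 1 probe.

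*Trh* encodes thyrotropin-releasing hormone, which drives the thyroid axis from the paraventricular nucleus. It read 24.7, 1.97, 0.940 and 3.34 across Fn14ko replicates 1 to 4, 0.255, 0.372, 0.748 and 0.993 in MRL/lpr, and 0.588, 0.645, 0.708 and 2.97 in MRL/+. Fn14ko replicate 1 was again the highest sample, but replicate 4 exceeded replicate 2, and MRL/+ replicate 4 stood apart from its own group. *Crh* encodes corticotropin-releasing hormone, which starts the stress response and is also made by interneurons of the hippocampus and cortex. It read 7.17, 8.16, 5.25 and 5.65 across Fn14ko replicates 1 to 4, 1.22, 1.81, 0.694 and 0.681 in MRL/lpr, and 5.21, 1.14, 4.33 and 1.09 in MRL/+. All 4 samples labelled Fn14ko were above all others, by little in the case of MRL/+ replicate 1, and no single sample stood out. In MRL/+ the Cy5 replicates 2 and 4 were low and not well above background.

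*Pomc*, the precursor of melanocortins and beta-endorphin, is made by arcuate neurons that curb feeding. It read 12.9, 5.64, 5.87 and 5.00 across Fn14ko replicates 1 to 4, 2.10, 1.84, 0.710 and 0.768 in MRL/lpr, and 5.25, 2.64, 4.51 and 2.81 in MRL/+. Every MRL/lpr sample lay below every sample of the other 2 groups, whereas Fn14ko and MRL/+ overlapped at 5.00 and 5.25. *Cartpt* encodes the CART peptide, which arcuate neurons make together with proopiomelanocortin and which cells of many other brain regions make too. It read 45.2, 34.3, 19.3 and 18.6 across Fn14ko replicates 1 to 4, 2.52, 2.64, 2.40 and 1.89 in MRL/lpr, and 17.6, 5.88, 23.1 and 7.20 in MRL/+. The MRL/lpr samples were the lowest 4 of 12 and close to each other, with a mean of 2.36 ± 0.330 compared with 13.4 ± 8.30 in MRL/+ and 29.3 ± 12.8 in Fn14ko (SD, n = 4). *Agrp* encodes agouti-related peptide, which blocks melanocortin receptors and promotes feeding. It read 1.51, 0.495, 0.164 and 0.698 across Fn14ko replicates 1 to 4 and was well above background in 3 of 12 samples, namely this replicate 1 and MRL/lpr replicates 1 and 2 with 1.55 and 3.08. Its highest sample was MRL/lpr replicate 2, and *Agrp* was well above background in 0 of 4 MRL/+ samples.

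*Gal* encodes galanin, a peptide of hypothalamic, locus coeruleus and other neurons. It read 40.2, 9.53, 7.34 and 4.91 across Fn14ko replicates 1 to 4, 5.41, 6.88, 8.62 and 4.91 in MRL/lpr, and 4.90, 1.28, 6.20 and 1.92 in MRL/+. Fn14ko replicate 1 was 4.22 times the next highest sample, and the remaining 11 overlapped between groups. In the order of group means, Fn14ko came first for 9 of the 10 genes and *Agrp* had its highest mean in MRL/lpr. For *Oxt*, *Avp*, *Pmch*, *Hcrt*, *Trh* and *Gal* the SD of the samples labelled Fn14ko was larger than their mean, so that their place in this order was not separated from the next group by more than the spread.

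**Figure D1:**
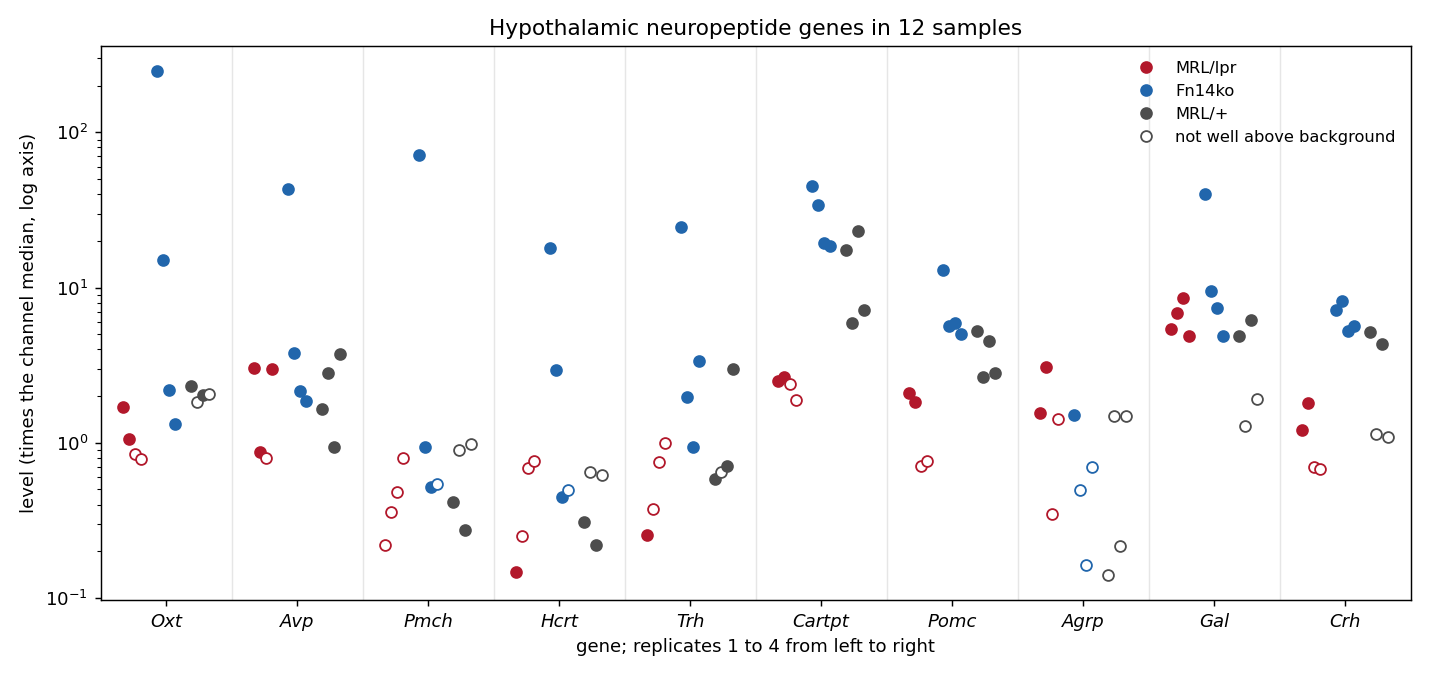
Level of each of the 10 genes in each of the 12 samples, as multiples of the channel median on a log axis. Red points are MRL/lpr, blue Fn14ko and grey MRL/+, replicates 1 to 4 from left to right. Filled points were well above background and open points were not. Fn14ko replicate 1 is the highest sample for *Oxt* at 248 and for 7 of the other 9 genes.

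Of the 9 other peptide genes, 7 had their highest level in the same sample as *Oxt*, the exceptions being *Agrp* and *Crh*. The ratio of Fn14ko replicate 1 to the median of the other 3 samples of that label was 130 for *Pmch*, 36.6 for *Hcrt*, 20.0 for *Avp*, 12.6 for *Trh* and 5.48 for *Gal*, with levels taken as read. Among the 19261 genes well above background in that sample, these ratios ranked 1, 4, 5, 11 and 38, with *Oxt* at 2. The ratios were 3.06 for *Agrp*, 2.34 for *Cartpt*, 2.29 for *Pomc* and 1.27 for *Crh*, the last at rank 5674. A ratio of at least 4, a threshold set after the values were seen, was reached by 5 of the 9 genes and by 0.415% of all 19261 (80 genes), whose median ratio was 1.11 and whose 99th percentile was 2.83. For *Pmch*, *Hcrt* and *Agrp* the median sample was not well above background, so their ratios are not exact folds. With such samples raised to at least the larger of the lowest level well above background and the negative-control level, a rule set after the values were seen, the ratios were 85.2, 21.7 and 2.76. Under this rule 5 of the 9 genes and 0.265% of all (51 genes) reached 4, *Oxt* and *Pmch* ranking 1 and 2. The 9 genes were chosen because of this sample, so the share is a description. The count was 5 or 6 in every alternative in which it could be computed. Leaving out 1 sample gave ratios of 95.3 to 133 for *Pmch*, 10.5 to 38.4 for *Hcrt*, 14.5 to 21.5 for *Avp*, 9.32 to 17.0 for *Trh*, 4.77 to 6.56 for *Gal* and 2.54 to 4.59 for *Agrp*. Over all alternatives *Hcrt* ran from 6.53 to 54.2 and *Agrp* from 2.30 to 5.34, so *Agrp* passed 4 in some. *Pmch*, *Hcrt*, *Avp*, *Trh* and *Gal* were thus high in the sample in which *Oxt* was high, and *Cartpt*, *Pomc* and *Crh* stayed under a ratio of 4.

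The other sample of the same array gave a different order. With levels as read, Fn14ko replicate 2 was 8.59 times the median of replicates 3 and 4 for *Oxt* and 6.25 times for *Hcrt*. The ratio was 1.88 for *Avp*, 1.81 for *Cartpt*, 1.77 for *Pmch*, 1.56 for *Gal*, 1.5 for *Crh*, 1.15 for *Agrp*, 1.04 for *Pomc* and 0.920 for *Trh*. In this sample, then, *Hcrt* was high together with *Oxt*, and *Pmch*, steepest in replicate 1 with levels as read, was close to its usual level of under 1 in every other sample. Which peptides were high therefore differed between the 2 samples of the array.

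Over all 12 samples, which share arrays, dyes and scaling, the log2 levels of *Pmch*, *Avp* and *Hcrt* correlated with that of *Oxt* with a Pearson r of 0.878, 0.863 and 0.862 (n = 12). Spearman's rho, which uses only the order of samples, was 0.399, 0.531 and 0.189. When Fn14ko replicates 1 and 2, the samples farthest from the *Oxt* median, were left out, r was −0.11, 0.286 and −0.36, so the relation of these 3 genes rested on those samples. The same holds for *Trh* (r = 0.773, rho = 0.301, 0.0368 without the 2 samples) and *Gal* (r = 0.685, rho = 0.266, −0.35 without them). *Pomc* and *Cartpt* behaved differently. Their r was 0.732 and 0.694, their rho 0.895 and 0.846, and without the 2 samples r was 0.851 and 0.734. *Crh* gave an r of 0.604 and a rho of 0.720 (r = 0.592 without the 2 samples), and *Agrp* an r of 0.0784 and a rho of −0.23 (r = −0.43 without them). For *Pomc* and *Cartpt*, whose MRL/lpr samples were the lowest 4 of 12, the relation did not rest on the 2 samples. It does include readings not well above background, those of all 3 genes in MRL/lpr replicates 3 and 4 and of *Oxt* in MRL/+ replicates 2 and 4. Among 17457 genes well above background in at least 6 samples, the r of *Avp*, *Hcrt*, *Trh*, *Pomc*, *Cartpt*, *Gal* and *Crh* ranked 8, 9, 40, 76, 115, 130 and 431. Correlations for 9 genes were computed, and none was tested.

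Among genes well above background in at least 6 samples, the 5 with the highest r with *Oxt* over the 12 samples were *Mrap2* (0.895), *Ngfr* (0.893), *Sfrp5* (0.882), *Glipr2* (0.880) and *Insyn2b* (0.879). *Mrap2* encodes an accessory protein of melanocortin receptors, *Ngfr* the p75 neurotrophin receptor and *Sfrp5* a secreted inhibitor of Wnt signalling. *Mrap2* read 4.98, 1.90, 1.62 and 1.47 across Fn14ko replicates 1 to 4, 0.970 to 1.84 in MRL/+ and 0.823 to 0.958 in MRL/lpr, and without the 2 farthest samples its r was 0.722. The r of *Ngfr* was 0.328 and that of *Glipr2* 0.836 without them. By the ratio of Fn14ko replicate 1 to the other samples of that label, the 10 genes with the highest values among those well above background in at least 6 samples were *Gm3985* (106), *Hcrt*, *Avp*, *Serpinb3c* (17.0), *Arhgap36* (15.7), *Dlk1* (15.2), *Trh*, *Ccdc153* (12.2), *Ebf3* (11) and *Igsf1* (10.6), with levels as read. *Gm3985* read 43.6, 4.80, 0.329 and 0.410 across Fn14ko replicates 1 to 4 and 0.163 to 0.979 in the other 8 samples. *Dlk1*, which encodes a protein of the Notch ligand family, read 15.4, 1.94, 0.650 and 1.01, compared with 0.405 to 2.95 in the other 8. *Ccdc153*, expressed in ciliated ependymal cells, read 10.1 in Fn14ko replicate 1 and 9.76 and 7.33 in MRL/lpr replicates 1 and 2. *Igsf1* read 10.6 in Fn14ko replicate 1 and 11.3 and 13.4 in MRL/lpr replicates 3 and 4.

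The sequences upstream of the genes that were steeply high in Fn14ko replicate 1 were examined, since these genes were high in the same sample. RefSeq promoter sequences of GRCm38.p6 were matched for 8 of the 10 genes, with none for *Crh* and *Agrp*. In the 250 bases before each start, 4 motifs chosen after the levels were seen were searched on both strands: TATAAA (the TATA box), AGGTCA (a nuclear receptor half-site), TGACGTCA (the cAMP response element) and CACGTG (an E-box). They occurred in 13.0%, 13.8%, 1.62% and 6.05% of the 27025 promoters of the same length. *Pmch* and *Hcrt* each had 1 TATAAA, *Trh* 1 AGGTCA, *Avp* 1 CACGTG, and *Oxt* 2 AGGTCA, both farther upstream than the stretch shown. *Cartpt* had 1 TGACGTCA, *Pomc* 1 TATAAA and 1 AGGTCA, and *Gal* none of the 4. No motif was present in all of *Oxt*, *Avp*, *Pmch*, *Hcrt* and *Trh*, and a match is a description, not a site. The 150 bases before the start of these 5 genes, 5′ to 3′ on the gene's strand with motifs on either strand in capitals, lie at chr2:130576019-130576168 (plus) for *Oxt*, chr2:130582589-130582738 (minus) for *Avp*, chr10:88090922-88091071 (plus) for *Pmch*, chr11:100762932-100763081 (minus) for *Hcrt* and chr6:92244651-92244800 (minus) for *Trh*.
Oxt: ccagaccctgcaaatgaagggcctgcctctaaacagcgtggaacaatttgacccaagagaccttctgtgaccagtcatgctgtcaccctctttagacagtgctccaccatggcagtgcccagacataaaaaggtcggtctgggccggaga
Avp: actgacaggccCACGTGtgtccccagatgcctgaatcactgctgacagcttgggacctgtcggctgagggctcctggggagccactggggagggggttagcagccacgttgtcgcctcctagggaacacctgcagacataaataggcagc
Pmch: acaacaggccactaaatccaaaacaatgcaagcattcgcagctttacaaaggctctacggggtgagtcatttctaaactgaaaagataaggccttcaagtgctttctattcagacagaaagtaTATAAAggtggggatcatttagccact
Hcrt: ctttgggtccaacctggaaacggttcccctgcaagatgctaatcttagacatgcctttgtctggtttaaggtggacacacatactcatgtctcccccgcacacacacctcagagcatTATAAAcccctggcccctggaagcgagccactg
Trh: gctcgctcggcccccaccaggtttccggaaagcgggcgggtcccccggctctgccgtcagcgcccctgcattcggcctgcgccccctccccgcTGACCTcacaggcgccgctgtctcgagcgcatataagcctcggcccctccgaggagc

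The comparison of MRL/lpr with MRL/+ asks how the lupus-prone hippocampus differs from its background strain. *Cartpt* was lower in all 4 MRL/lpr samples than in any MRL/+ sample, at a log2 fold change of −2.29 with a standard error of 0.488, and was the 1 gene of 9 past the threshold, an adjusted p of 0.05 from limma over all 29608 genes (adjusted p = 0.0448). Of all genes, 0.388% were called lower and 0.605% higher. *Pomc* was also lower in 4 of 4 samples, by −1.59 (standard error 0.456), and missed the threshold (adjusted p = 0.108). Both genes, and *Crh*, were not well above background in MRL/lpr replicates 3 and 4, and without that array *Cartpt*, *Pomc* and *Crh* were at −2.15, −0.89 and −0.63. An exact permutation test, two-sided, gave p = 0.0286 for *Cartpt* and *Pomc*, the smallest it can give with 4 samples against 4, and it treats samples of the same array as independent. The 4 samples did not overlap for 2 of the 9 genes, both lower in MRL/lpr, and for 3.33% of all genes in that direction. *Crh* was −1.19 (adjusted p = 0.289) and *Gal* 1.10 (adjusted p = 0.342), with overlapping groups, and the remaining 5 genes had adjusted p-values of 0.389 to 0.980. *Crh* and *Gal* were well above background in 2 of 4 MRL/+ samples. With MRL/+ raised to the detection level described below for lower bounds, the difference of *Gal* was 0.95 (log2) in the scaling used here. As read, it ran from 0.56 to 1.83 over the alternatives. *Pmch* was well above background in 0 of 4 MRL/lpr and 2 of 4 MRL/+ samples and *Agrp* in 2 of 4 and 0 of 4, so no fold is given for either (adjusted p = 0.928 and 0.389 from limma). The median of the 9 genes was −0.42 (0.11 with scaling by the median of the spots valid in all samples, 0.58 without the Cy5 samples of MRL/+, −0.87 to −0.07 leaving out 1 sample), and that of all genes −0.25.

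The call of *Cartpt* was not firm. Its adjusted p ran from 0.006 to 0.673 over the alternatives, and 11 of 26 kept it. With array as a random block, which treats samples of an array as related, the adjusted p was 0.673. It was 0.0732 and 0.0595 without MRL/lpr replicate 1 or 3. Without Fn14ko replicate 1, 2, 3 or 4, which contribute to the shared estimate of the spread, it was 0.0774, 0.0716, 0.0635 and 0.0892. Without MRL/+ replicate 1, 2, 3 or 4 it was 0.211, 0.0612, 0.223 and 0.0934. The adjusted p of *Pomc*, 0.0228 to 0.842 over its alternatives, passed the threshold without MRL/lpr replicate 2 (0.0228), as did that of *Crh* (0.0429, with a range up to 0.872). Relative to the median of all genes, *Cartpt* was at −2.04 in the scaling used here, −1.96 with scaling by the spots valid in all samples and −1.91 after quantile normalization. *Prox1*, *Dsp* and *Fibcd1* were higher and the cortical marker *Lamp5* lower in the 4 MRL/lpr samples than in the 4 MRL/+ samples, and their part in the results was not tested.

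The comparison of MRL/lpr with the samples labelled Fn14ko asks, if the labels hold, what differs when the TWEAK receptor is removed from the lupus-prone strain. *Cartpt*, *Pomc* and *Crh* were lower in all 4 MRL/lpr samples than in any sample labelled Fn14ko, with log2 fold changes of −3.54, −2.50 and −2.68 (standard errors 0.488, 0.456 and 0.527). MRL/lpr replicates 3 and 4 were not well above background for any of the 3. MRL/lpr was raised to the detection level described below for lower bounds, a step added after the values were seen. In the scaling used here *Pomc* and *Crh* were then lower by 2.37 and 2.51 on the log2 scale and *Cartpt* stayed at 3.54. Without the array of MRL/lpr replicates 3 and 4 *Pomc* and *Crh* were at −1.79 and −2.12. With scaling by the spots valid in all samples they were at −1.04 and −1.22. These 3 of 9 genes passed the threshold of limma (adjusted p = 0.00328, 0.00823 and 0.0106), as did 8.04% of all genes in the same direction, and the exact permutation p was 0.0286 for each. The 4 samples did not overlap for the same 3 genes and for 26.3% of all genes in that direction, which makes non-overlap common in this comparison. *Trh* was −2.77 (standard error 0.868) with an adjusted p of 0.0509 from limma and an exact permutation p of 0.0571, and its adjusted p, 0.0239 to 0.329 over the alternatives, was past the threshold in 5 of 25. *Hcrt* and *Avp* were −2.31 (standard error 1.00, adjusted p = 0.103) and −1.67 (standard error 0.892, adjusted p = 0.178), the large errors reflecting the spread among samples labelled Fn14ko. *Hcrt* and *Trh* were well above background in 1 of 4 MRL/lpr samples, so their differences are those of the readings. *Pmch* was well above background in 0 of 4 MRL/lpr samples and 3 of 4 samples labelled Fn14ko, so no fold is given (adjusted p = 0.176). *Gal* was −0.78 (adjusted p = 0.311), and *Agrp*, well above background in 2 of 4 and 1 of 4 samples, had an adjusted p of 0.238. The median of the 9 genes was −2.32 and that of all genes −0.08. Without Fn14ko replicate 1 the median of the 9 was −1.05, and *Trh*, *Hcrt* and *Avp* were at −1.67, −1.05 and −0.54. That median was −0.35 without the array of Fn14ko replicates 1 and 2 and −0.87 with scaling by the valid spots.

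With array as a random block, whose estimated correlation between samples of an array was 0.658, the calls were lost, with an adjusted p of 0.130 for *Cartpt*, 0.173 for *Pomc* and 0.262 for *Crh*. Over all alternatives the adjusted p ran from 0.000424 to 0.130 for *Cartpt*, from 0.00212 to 0.173 for *Pomc* and from 0.00241 to 0.262 for *Crh*. *Cartpt* kept its call in 24 of 26 alternatives, and *Pomc* and *Crh* in 21 of 25. Without the array of Fn14ko replicates 1 and 2, on which *Oxt* was high, the adjusted p was 0.120, 0.169 and 0.180 at log2 fold changes of −3.01, −2.17 and −2.43, and without Fn14ko replicate 2 alone that of *Crh* was 0.0544. Scaling by the median of the spots valid in all 12 samples moved the median of all genes by 1.43 in this comparison, by 0.46 in MRL/lpr against MRL/+ and by −0.95 in Fn14ko against MRL/+, and quantile normalization moved it by 0.17 in MRL/lpr against MRL/+. Relative to the median of all genes, *Cartpt*, *Pomc* and *Crh* were at −3.46, −2.42 and −2.60 in the scaling used here, at −3.43, −2.39 and −2.57 with the valid spots, and at −2.33, −2.71 and −3.0 after quantile normalization. *Gal* turned in sign, from −0.78 to 0.67 with the valid spots and 0.43 after quantile normalization, and relative to the median of all genes it was −0.70, −0.67 and 0.47 in the 3 scalings. The hippocampal markers *Prox1* and *Dsp* and the cortical marker *Tbr1* were separated between the groups too, and their part was not tested.

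The comparison of the samples labelled Fn14ko with MRL/+ asks, if the labels hold, how far the knockout resembles mice without lupus. No gene was called by limma (0 of 9 and 0.0% of all genes), although 2591 of 29608 genes had an unadjusted p under 0.05, and the methods' heteroscedastic test gave 2325 genes at its unadjusted threshold and 0 after adjustment. Log2 fold changes were 1.25 for *Cartpt*, 0.90 for *Pomc*, 1.49 for *Crh* and 1.88 for *Gal*, with adjusted p-values of 0.562, 0.578, 0.562 and 0.562. *Crh* and *Gal* were well above background in 2 of 4 MRL/+ samples. With dim samples raised to the detection level, their differences were 1.12 and 1.74 (log2) in the scaling used here. As read, they went down to 0.34 and 0.97 over the alternatives, and the groups of *Gal* overlapped. *Pomc* was at −0.01 with scaling by the spots valid in all samples, while relative to the median of all genes it was 0.92 in the scaling used here, 0.96 in that one and 0.19 after quantile normalization. *Crh* was the 1 gene of 9 whose groups did not overlap (exact permutation p = 0.0286), which 5.93% of all genes showed in that direction. Without the Cy5 samples of MRL/+, not well above background for *Crh*, its log2 fold change was 0.34 and that of *Cartpt* 0.53, an alternative chosen after the data were seen. *Hcrt*, *Pmch*, *Trh* and *Avp* were at 2.19, 1.90, 1.90 and 1.33, with standard errors of 0.868 to 1.24 and adjusted p-values of 0.570 to 0.582. Without Fn14ko replicate 1 they were at 0.93, 0.05, 0.80 and 0.20, so these values rested largely on that sample. *Hcrt* and *Pmch* were well above background in 3 of 4 samples labelled Fn14ko and 2 of 4 MRL/+ samples, and *Trh* in 4 of 4 and 3 of 4. The differences of *Hcrt*, *Pmch* and *Trh* are therefore those of the readings, and no fold is claimed for *Hcrt* and *Pmch*. *Agrp* had an adjusted p of 0.941, and its bound was under 1, so no fold is given. The median of the 9 genes was 1.49 and that of all genes −0.02. The former was 0.80 without Fn14ko replicate 1, 0.58 without the array of Fn14ko replicates 1 and 2 and 0.57 with scaling by the valid spots. When MRL/lpr replicates 3 and 4 were left out, whose array enters the shared estimate of the spread, *Gal*, *Crh*, *Pomc* and *Cartpt* passed the threshold (adjusted p = 0.0268, 0.0309, 0.0417 and 0.0431), as did 7551 of all 29608 genes, 3549 of them higher, and over all alternatives the adjusted p of each ran up to 1.0. The 3 comparisons share samples, so they are not independent.

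The receptors and binding proteins of these peptides were followed as a list of 17 genes. In MRL/lpr against Fn14ko, where 4.76% of all genes were called higher and 8.04% lower, 2 of the 17 were called higher and 4 lower, the latter including *Mc3r* and *Hcrtr1*, named after their values were seen, and 0 of 17 were called in the other 2 comparisons by limma. The balance among all genes depended on the scaling: with the spots valid in all samples, 1586 genes were called higher and 430 lower. *Crhr1*, the main receptor of corticotropin-releasing hormone and the list's gene with the brightest probe, read 5.50, 6.10, 2.14 and 1.13 in MRL/lpr and 15.6 to 35.1 in the samples labelled Fn14ko. Its log2 fold change was −2.77 (adjusted p = 0.0153), and *Crhbp*, whose product binds and sequesters the same hormone, fell by 2.16 (adjusted p = 0.0401). *Avpr1b*, a vasopressin receptor gene known from the pituitary and from hippocampal area CA2, read 0.767, 0.901, 14.0 and 9.57 in MRL/lpr and was not well above background in any sample labelled Fn14ko, which makes it at least 9.45-fold higher in MRL/lpr (adjusted p = 0.0135). Its high readings were those of MRL/lpr replicates 3 and 4, the array of weakest signal. With Fn14ko raised to the detection level the groups overlapped, and leaving out 1 sample gave log2 fold changes of 3.66 to 5.75. Such a bound is given where all 4 samples of the brighter group were well above background, and it sets their mean log2 level against, per sample of the dimmer group, the highest of the lowest level well above background, the negative-control level and the gene's own level. In MRL/lpr replicates 3 and 4 the lowest level well above background was negative (−1.22 and −2.07). There the rule used the negative-control level or the gene's own level. A bound covers dim readings in the scaling used here and does not cover the alternatives. *Hcrtr2*, an orexin receptor gene, was called higher too (adjusted p = 0.0224), with 2 of 4 MRL/lpr samples well above background, so no fold is given. With array as a random block the adjusted p of these 4 genes was 0.200 to 0.264. *Oxtr*, the oxytocin receptor gene, chosen after its values were seen, read 4.85, 3.27, 2.26 and 2.72 across Fn14ko replicates 1 to 4 and 4.36, 1.42, 4.44 and 1.82 in MRL/+, so it did not share the contrast of *Oxt*. None of the 13 genes well above background in Fn14ko replicate 1 reached a ratio of 4 there, and *Avpr2* and *Galr3* were well above background in 0 of 12 samples. The summed level of the 17 genes was 29.2, 29.0, 33.3 and 25.4 in MRL/lpr, 63.1, 53.9, 66.6 and 48.2 in Fn14ko, and 59.2, 25.9, 65.7 and 29.8 in MRL/+.

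Peptide precursors are processed by convertases and stored in granules, for which 14 genes were followed. *Vgf*, a granule protein gene, and *Cadps*, which primes granules for release, fell in MRL/lpr against Fn14ko, by 3.25 and 2.82 on the log2 scale (adjusted p = 0.0482 and 0.0495 from limma, 0.262 for both with array as a random block). The other 12 genes passed in neither direction, where 8.04% of all genes were called lower and 4.76% higher, and 0 of 14 were called in the other comparisons. These counts were not firm. Leaving out 1 sample gave 0 to 12 of 14 called lower against Fn14ko, 12 without MRL/lpr replicate 2, and 2 of 26 alternatives kept the count of 2. Without MRL/lpr replicate 2, 10493 of all 29608 genes were called lower too. *Pcsk1n*, a convertase inhibitor gene with the list's brightest probe, read 933, 713, 1088 and 590 across Fn14ko replicates 1 to 4, 195, 338, 170 and 102 in MRL/lpr, and 1164, 317, 1067 and 280 in MRL/+. None of the 14 genes reached a ratio of 4 in Fn14ko replicate 1, where their median ratio was 1.15. Summed levels were 1486, 1890, 463 and 215 in MRL/lpr, 3337, 3266, 3885 and 3128 in Fn14ko, and 3318, 929, 3172 and 1136 in MRL/+. The sum in Fn14ko replicate 1, where *Oxt* was highest, thus lay within the range of the other 3 samples of that label.

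A further 22 peptide genes with expression in the hypothalamus, many of them also in hippocampal interneurons or the striatum, were followed. In MRL/lpr against Fn14ko 7 were called lower and 0 higher (8.04% and 4.76% of all genes), the largest changes being *Penk* (enkephalin, −4.21, adjusted p = 0.0174), *Adcyap1* (PACAP, −3.17, adjusted p = 0.00904), *Npy* (neuropeptide Y, −3.10, adjusted p = 0.0401) and *Tac2* (neurokinin B, −3.07, adjusted p = 0.00814). *Tac2* was also the 1 gene of 22 called in MRL/lpr against MRL/+ (−2.65, adjusted p = 0.0421), where 0.388% of all genes were called lower. With array as a random block these adjusted p-values were 0.195, 0.182, 0.262 and 0.180, and 0.595 for *Tac2* against MRL/+. The count called lower was 2 to 12 of 22 against Fn14ko and 0 to 7 against MRL/+ when 1 sample was left out. Of all 29608 genes, 138 to 10493 and 4 to 4042 were called lower in the same alternatives. In Fn14ko against MRL/+ limma called 0. Of the 20 genes well above background in Fn14ko replicate 1, 3 reached a ratio of 4, chosen after their values were seen: *Nts* (neurotensin, 8.06), *Npvf* (5.83, and 3.55 under the rule for dim samples) and *Ghrh* (growth hormone-releasing hormone, 5.77). *Nts* read 11.5, 4.55, 1.43 and 1.39 across Fn14ko replicates 1 to 4, 2.04, 3.22, 0.649 and 0.559 in MRL/lpr and 0.805 to 1.04 in MRL/+, high in the same 2 samples as *Oxt*. *Ghrh*, in contrast, read 15.5 in MRL/lpr replicate 3 and 4.45 in Fn14ko replicate 1. *Cck*, with the list's brightest probe, read 436 to 689 in the samples labelled Fn14ko. The list's sum was 632, 741, 160 and 75.8 in MRL/lpr, 1061, 1360, 1270 and 1038 in Fn14ko, and 1187, 488, 1385 and 532 in MRL/+.

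Markers of hypothalamic and neighbouring tissue were read in the same way, and their calls stand beside 8.04% of all genes called lower and 4.76% higher against Fn14ko, and 0.388% and 0.605% against MRL/+. Of 19 transcription factor and regulator genes of the hypothalamus, 14 were well above background in Fn14ko replicate 1 and 3 of these reached a ratio of 4, namely *Fezf1* (15.0), *Isl1* (6.57) and *Irs4* (4.98), or 5.60, 2.24 and 4.98 under the rule for dim samples. The median ratio of the 14 was 2.13. Of the 19 genes, 9, 7 and 6 were well above background in Fn14ko replicates 2 to 4, and 3 to 11 in samples of the other groups. Of the 19, *Sim1*, *Otp*, *Rax* and *Bsx* were well above background in 0 of 12 samples, while *Arnt2* and *Pou3f2* were so in all 4 samples labelled Fn14ko. *Fezf1* read 3.07 in Fn14ko replicate 1 but also 3.44 and 1.66 in MRL/lpr replicates 3 and 4. The 19 genes summed to 26.9, 34.1, 51.4 and 42.8 in MRL/lpr, 74.7, 57.1, 76.8 and 54.9 in Fn14ko, and 75.4, 37.8, 77.2 and 43.8 in MRL/+. Their brightest probe was that of *Arnt2*, which fell in MRL/lpr against Fn14ko (−2.31, adjusted p = 0.0366), as did *Pou3f2* (−1.42, adjusted p = 0.0474), which reached 0.04 with scaling by the spots valid in all samples. *Lhx9* rose, at least 9.27-fold against Fn14ko (adjusted p = 0.00516, 1 of 4 samples labelled Fn14ko well above background) and at least 6.62-fold against MRL/+ (adjusted p = 0.0168, 0 of 4). Under the random block of arrays the adjusted p was 0.262 for *Arnt2*, 0.313 for *Pou3f2*, and 0.171 and 0.525 for *Lhx9*. Of 8 genes of hypothalamic glia and ependyma, 2 of the 7 well above background reached a ratio of 4, *Ccdc153* (12.2) and *Tmem212* (11.4, and 5.48 under that rule), and *Tmem212* read 3.01 in that sample but 2.97 and 4.85 in MRL/lpr replicates 1 and 2. In MRL/lpr against Fn14ko *Dio2*, the deiodinase of tanycytes and astrocytes and the brightest probe of the 8, fell by 2.07 (adjusted p = 0.0472) and *Col25a1*, well above background in 2 of 4 MRL/lpr samples, was called higher (adjusted p = 0.0372), with an adjusted p of 0.278 and 0.265 under the random block. Their sum was 136, 174, 68.6 and 33.4 in MRL/lpr, 224, 148, 114 and 125 in Fn14ko, and 129, 25.1, 114 and 37.4 in MRL/+. Of 11 pituitary genes, 8 were well above background in 0 of 12 samples, among them the hormone genes *Gh*, *Prl*, *Tshb*, *Fshb* and *Cga*. *Lhb* had the brightest probe, and *Ghrhr* was called higher in MRL/lpr against Fn14ko with 2 of 4 and 1 of 4 samples well above background, so no fold is given (adjusted p = 0.0342, 0.262 under the random block). The pituitary genes summed to 2.58 in Fn14ko replicate 1 and 1.13 to 8.65 in the other 11 samples. The part of these tissues in the levels of *Oxt* and its followers was not tested.

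Neighbouring brain regions gave the remaining lists. Of 12 genes of thalamus and habenula, 2 of 11 reached a ratio of 4 in Fn14ko replicate 1, *Gbx2* (10.8) and *Gpr151* (4.53), which became 3.40 and 1.26 under the rule for dim samples, and the brightest probe was that of *Tac2*. Their sum was 101 in that sample, 48.8 to 54.3 in the other 3 samples labelled Fn14ko, 24.9 to 36.3 in MRL/lpr and 21.7 to 67.5 in MRL/+. *Plekhg1*, well above background in 2 of 4 MRL/lpr samples and 0 of the other 8, was called higher in MRL/lpr than in Fn14ko (adjusted p = 0.0035) and MRL/+ (adjusted p = 0.0349), and *Slc17a6* fell by 2.57 against Fn14ko (adjusted p = 0.0326). Under the random block these adjusted p-values were 0.09, 0.540 and 0.262. The groups of *Slc17a6* overlapped. The counts were 1 of 12 higher and 2 lower against Fn14ko (4.76% and 8.04% of all genes), and 1 and 1 against MRL/+ (0.605% and 0.388%). Of 12 choroid plexus genes, 3 of 12 reached a ratio of 4, *Ttr* (8.35), *Otx2* (4.49, and 3.80 under that rule) and *Clic6* (4.45), yet *Ttr* read 121 in Fn14ko replicate 1 compared with 538 and 147 in MRL/lpr replicates 1 and 2. Choroid plexus sums were 927, 284, 73.7 and 110 in MRL/lpr, 317, 180, 240 and 137 in Fn14ko, and 209, 54.0, 224 and 67.4 in MRL/+, with *Enpp2* as the brightest probe. *Otx2* rose in MRL/lpr by 4.03 against Fn14ko (adjusted p = 0.0101) and 4.00 against MRL/+ (adjusted p = 0.0332), *Kcnj13* by 2.05 and 2.49 (adjusted p = 0.0259 and 0.0368), and *Kcne2*, with 2 of 4 and 1 of 4 samples well above background, was called higher than in Fn14ko (adjusted p = 0.03), which is 3 of 12 genes against Fn14ko and 2 against MRL/+ (4.76% and 0.605% of all genes). For *Kcnj13* the groups overlapped in both comparisons. The random block gave an adjusted p of 0.136 and 0.336 for *Otx2*, 0.262 and 0.613 for *Kcnj13*, and 0.264 for *Kcne2*. None of the 13 hippocampal, 12 striatal and 9 cortical genes well above background in Fn14ko replicate 1 reached a ratio of 4, and their median ratios were 1.31, 0.746 and 1.02. Median ratios of the lists of receptors, further peptides, glia and ependyma, thalamus and habenula, and choroid plexus were 1.58, 1.72, 1.83, 1.60 and 2.30.

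These 3 lists separated MRL/lpr from the other groups instead. Of 14 hippocampal genes, 5 were called higher and 0 lower against Fn14ko (4.76% and 8.04% of all genes), with *Dsp* at 4.72, *Prox1* at 3.37, *Fibcd1* at 2.97 and *Lct* at 1.73 (adjusted p = 0.00173, 0.00173, 0.00544 and 0.0445 from limma). The groups of *Lct* overlapped. Against MRL/+, where 0.605% of all genes were called higher, *Dsp*, *Prox1* and *Fibcd1* were called, at 4.29, 2.83 and 2.45 (adjusted p = 0.00553, 0.00994 and 0.0305). The adjusted p of these calls under the random block was 0.0601 to 0.265 against Fn14ko and 0.313 to 0.362 against MRL/+. The hippocampal list summed to 317, 332, 97.3 and 54.2 in MRL/lpr, 379, 464, 493 and 347 in Fn14ko, and 353, 95.7, 371 and 126 in MRL/+, with *Pcp4* as its brightest probe, so the sum did not follow the called genes. Of 12 striatal genes 10 were called lower in MRL/lpr against Fn14ko (8.04% of all genes), among them *Penk*, *Adora2a* (−3.70, adjusted p = 0.00383) and *Ppp1r1b* (−3.30, adjusted p = 0.015), whose adjusted p was 0.195, 0.151 and 0.262 under the random block. The striatal sum was 74.4, 62.7, 28.5 and 20.9 in MRL/lpr, 328, 415, 728 and 193 in Fn14ko, and 223, 44.4, 186 and 43.1 in MRL/+, with *Penk* brightest. Of 9 cortical genes 4 were called lower against Fn14ko (8.04% of all genes), *Tbr1* (−3.80, adjusted p = 0.00879), *Cux2* (−3.54, adjusted p = 0.00507), *Lamp5* (−3.24, adjusted p = 0.00655) and *Rorb* (−2.17, adjusted p = 0.00979). Against MRL/+ 3 were called lower (0.388% of all genes), *Cux2*, *Lamp5* and *Rorb* (−3.37, −3.0 and −2.41, adjusted p = 0.0165, 0.0267 and 0.0202). The random block gave the cortical genes an adjusted p of 0.140 to 0.262 against Fn14ko and 0.392 to 0.595 against MRL/+. Cortical sums were 95.9, 66.3, 19.4 and 15.3 in MRL/lpr, 169, 196, 220 and 176 in Fn14ko, and 225, 70.4, 254 and 77.1 in MRL/+, with *Lamp5* brightest. In Fn14ko against MRL/+, limma called 0 genes of any list. In 36 of the 44 calls of list genes that the naming rule covers, some samples of the dimmer group were not well above background, so those differences are of readings as they stand. The lower bound for *Dsp*, *Prox1* and *Fibcd1* was 14.4-, 8.23- and 5.91-fold against Fn14ko and 8.80-, 4.23- and 3.02-fold against MRL/+, and for *Otx2* 14.0- and 10.3-fold. With dim samples raised to the detection level, *Fibcd1* overlapped between MRL/lpr and MRL/+. Of the 44 calls, 44 were lost with array as a random block (lowest adjusted p = 0.0601) and 42 without the array of Fn14ko replicates 1 and 2. Leaving out MRL/lpr replicates 1 to 4 in turn lost 4, 0, 11 and 11 of them, Fn14ko replicates 1 to 4 lost 17, 26, 23 and 23, and MRL/+ replicates 1 to 4 lost 20, 14, 21 and 17.

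**Figure D2:**
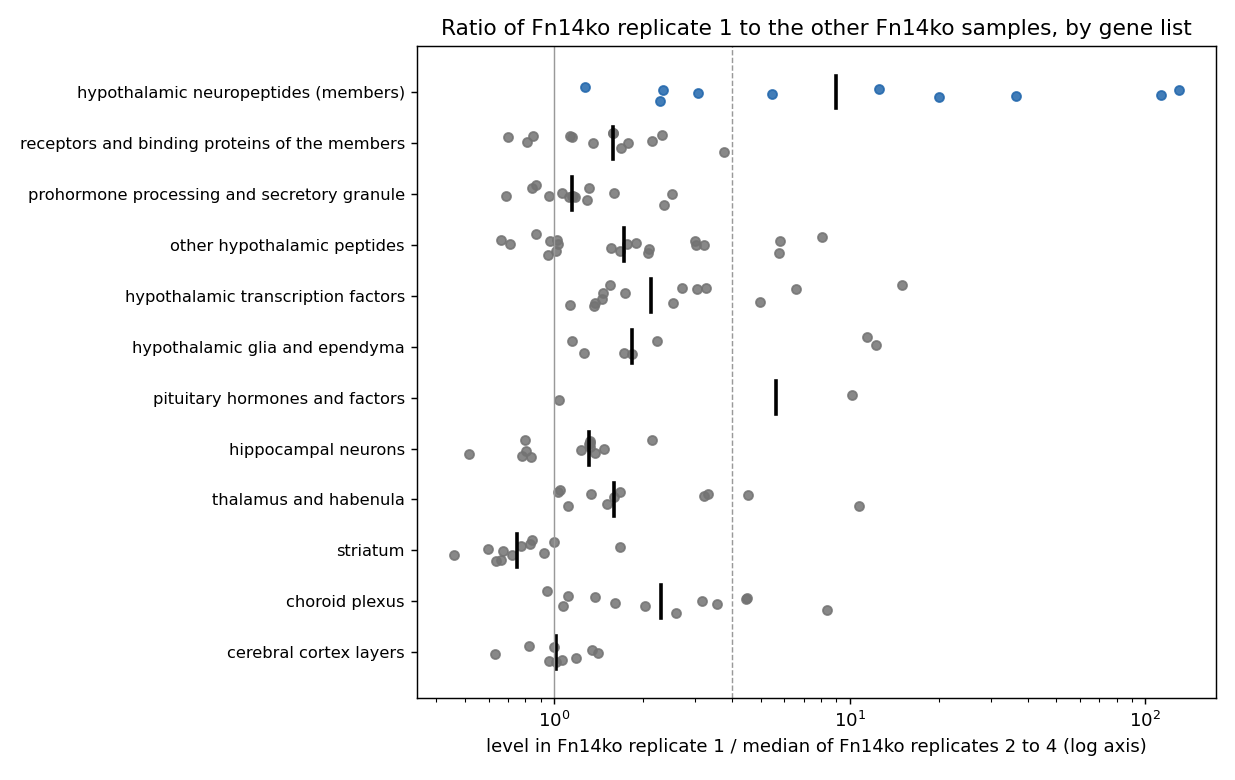
Ratio of Fn14ko replicate 1 to the median of Fn14ko replicates 2 to 4 for each listed gene well above background in replicate 1, on a log axis, with 1 point a gene and a bar at each list's median. The solid line marks a ratio of 1 and the dashed line a ratio of 4. Levels are as read. The bar of the peptide genes includes *Oxt* and lies at 9.02, while the 9 peptide genes other than *Oxt* have a median of 5.48. The hippocampal, striatal and cortical genes lie below 4.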

How the data were processed

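The 6 two-colour arrays gave 12 samples, and the deposited intensity values are the mean foreground and median local background of each spot, made by the authors with Agilent Feature Extraction 12.1. Levels were the foreground minus the local background, with a floor of 1% of the channel median, divided by the median of all non-control spots of the channel. The 43020 probe spots (39429 probes) were averaged on the linear scale to 29608 genes and put on the log2 scale. All 12 samples were fitted in 1 model with limma 3.58.1 (R 4.3.3, statmod 1.5.0), with dye as covariate, a mean-variance trend and Benjamini-Hochberg adjustment over all genes, and the code was tested on simulated data. Exact permutation tests, ratios and correlations used Python 3.11.15 (numpy 2.4.6, pandas 2.3.3), and figures matplotlib 3.10.9.

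The 10 genes and the 12 lists (the 10 genes, and marker or pathway genes chosen from general knowledge) were written down with earlier results of these data known. Genes named from the lists are those past an adjusted p of 0.05, at most 4 for each list and comparison with the largest change first, and the gene with the brightest probe. Of the genes most like *Oxt*, the 5 with the highest r and the 10 with the highest ratio are named. The threshold of 4 for ratios, the rule for lower bounds, the promoter motifs, the use of linear levels to find samples far from their group, and the alternative without the Cy5 samples of MRL/+ were chosen after values had been seen. Alternatives changed the background correction, the floor, the scaling, the filter on dim spots, the summary over probes, the dye and array terms of the model, the test, and the samples and arrays used. Results of some listed genes are not reported here. No explanation of the differences was tested.

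The main limits are 2 arrays for each group, arrays and slides that each hold 1 group, weak signal in MRL/lpr replicates 3 and 4, high readings of negative controls in the Cy5 samples of MRL/+, and marker genes that differ between the groups.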

Additional observations from a re-analysis of the deposited data

Results flagged for a closer look

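In 8 of 30 groups of 4 samples (10 genes in 3 groups), 1 sample lay far from the other 3, by a gap to the nearest that exceeded the 95% critical value of Dixon's ratio for 4 samples. About 1 in 20 groups is picked out by chance. Fn14ko replicate 1 was the far sample in 7 of the 8 groups, with a level of 248.2 for *Oxt*, 42.94 for *Avp*, 71.01 for *Pmch*, 18.07 for *Hcrt*, 24.74 for *Trh*, 12.93 for *Pomc* and 40.22 for *Gal*, each the highest of its group. The genes were chosen for the level of *Oxt* in this sample, so its place here was fixed by that choice and tests nothing. The other was *Trh* in MRL/+ replicate 4, at 2.968. Levels were used on the linear scale, a choice made after values had been seen, and on the log2 scale fewer groups would be picked out.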

How the results depend on the processing

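Of the log2 fold changes of the genes named, 1352 values under the alternatives kept their direction and their side of the threshold, 396 kept the direction and lost the threshold, 12 gained it and 29 changed direction. For each change below the cause was not tested, and the alternative without the Cy5 samples of MRL/+ was chosen after seeing the data.

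With 294 genes called in MRL/lpr against MRL/+, most alternatives changed the count. The count was 1238 with normexp background (offset 50), 1186 with the Agilent processed signal, 813 with the study's filter on dim spots, 454 among genes well above background in at least 4 samples, 727 with scaling by the spots valid in all samples, 1118 after quantile normalization, 115 with no dye covariate, 287 with the replicate block, 4 with array as a random block, 10268 without the array of MRL/lpr replicates 3 and 4, 20 without the array of Fn14ko replicates 1 and 2, and 77 without the Cy5 samples of MRL/+. Higher and lower calls were 179 and 115 in the processing used here. They were 227 and 500 with the valid spots, and 2038 and 8230 without the array of MRL/lpr replicates 3 and 4. The methods' heteroscedastic test gave 1125 genes unadjusted, 0 adjusted and 358 with its added fold-change threshold, beside 4877 genes at an unadjusted p under 0.05 from limma. Leaving out 1 sample gave 18 to 5350: 404, 5350, 413 and 598 without MRL/lpr replicates 1 to 4, 128, 112, 125 and 111 without Fn14ko replicates 1 to 4, and 18, 122, 18 and 73 without MRL/+ replicates 1 to 4.

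There were 3788 genes called in MRL/lpr against Fn14ko. The count was 10875 with the Agilent processed signal, 353 with the study's filter, 6234 among genes well above background in at least 4 samples, 2016 with scaling by the valid spots, 547 after quantile normalization, 942 with no dye covariate, 2505 with the replicate block, 12 with array as a random block, 15 without the array of Fn14ko replicates 1 and 2, and 2086 without the Cy5 samples of MRL/+. Higher and lower calls were 1408 and 2380 in the processing used here. They were 1811 and 9064 with the processed signal, 1586 and 430 with the valid spots, and 12 and 0 with array as a random block. The methods' test gave 9049 unadjusted, 1 adjusted and 2652 with the added threshold. Leaving out 1 sample gave 553 to 14780: 9132, 14780, 1770 and 1628 without MRL/lpr replicates 1 to 4, 1055, 553, 906 and 797 without Fn14ko replicates 1 to 4, and 1884, 2008, 1852 and 1715 without MRL/+ replicates 1 to 4.

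In Fn14ko against MRL/+, limma called 0 genes (2591 at an unadjusted p under 0.05). The count was 3 with normexp background, 1 with the Agilent processed signal, 46 with the study's filter, 43 with scaling by the valid spots, 7551 without the array of MRL/lpr replicates 3 and 4, and 0 to 1 when 1 sample was left out (1 without MRL/lpr replicate 2). The methods' test gave 2325 unadjusted, 0 adjusted and 404 with its added fold-change threshold. Samples of the same replicate number correlated across groups with r from −0.19 to 0.383, and from 0.131 to 0.383 between Fn14ko and MRL/+, and no label pairs them.

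Calls of the 9 genes other than *Oxt* changed as follows. In MRL/lpr against MRL/+, the adjusted p of *Cartpt* was 0.0872 with no dye covariate, 0.0679 with the replicate block, 0.124 without the array of Fn14ko replicates 1 and 2 and 0.0543 without the Cy5 samples of MRL/+ (range 0.006 to 0.673), and that of *Agrp* was 0.0434 without the array of MRL/lpr replicates 3 and 4. Against Fn14ko, *Pomc* had 0.116 with scaling by the valid spots (log2 fold change −1.04) and 0.0655 after quantile normalization (range 0.00212 to 0.173), and *Crh* had 0.0512 after quantile normalization (range 0.00241 to 0.262). *Trh* passed with the Agilent processed signal (0.0485), the replicate block (0.049), genes well above background in at least 4 samples (0.0416), without MRL/lpr replicate 2 (0.0399) and without the array of MRL/lpr replicates 3 and 4 (0.0239), with a range up to 0.329.

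Directions changed for *Pou3f2*, called in MRL/lpr against Fn14ko, and for genes that were not called. Values of *Pmch* in MRL/lpr against MRL/+ and of *Agrp* in Fn14ko against MRL/+ are readings of groups not well above background, and no fold is claimed. In MRL/lpr against MRL/+, *Avp* was −0.34 but 0.20 with scaling by the valid spots and 0.80 without the Cy5 samples of MRL/+ (−0.77 to 0.0589 leaving out 1 sample, above 0 without MRL/lpr replicate 3 or MRL/+ replicate 4). *Pmch* was −0.42 but 0.0920 with the processed signal, 0.11 with the valid spots and 0.90 without the Cy5 samples. *Hcrt* was −0.12 but 0.0826 with normexp, 0.40 with the valid spots and 0.72 without the Cy5 samples (−0.48 to 0.35 leaving out 1 sample). Against Fn14ko, *Gal* was −0.78 but 0.67 with the study's filter, 0.67 with the valid spots, 0.43 after quantile normalization and 0.0696 without the array of Fn14ko replicates 1 and 2, and *Pou3f2* was at 0.0383 with the valid spots. In Fn14ko against MRL/+, *Avp* was at −0.00562 and *Pmch* at −0.0728 without the array of Fn14ko replicates 1 and 2, and *Pomc* at −0.0141 with the valid spots. *Agrp* was at −0.0751 with normexp, −0.91 with the valid spots, −0.53 after quantile normalization and −0.59 without that array (−0.77 to 0.44 leaving out 1 sample).

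Of the 9 genes, 2 did not overlap in MRL/lpr against MRL/+, 3 in MRL/lpr against Fn14ko and 1 in Fn14ko against MRL/+. In the first, 4 did so after quantile normalization, 4 without the array of MRL/lpr replicates 3 and 4, 4 without the Cy5 samples of MRL/+ and 2 to 3 leaving out 1 sample. In the second it was 1 with the valid spots, 5 after quantile normalization, 7 without the array of MRL/lpr replicates 3 and 4 and 3 to 5 leaving out 1 sample. In the third it was 0 with normexp, 3 with the processed signal, 0 with the valid spots, 2 after quantile normalization, 5 without the Cy5 samples and 1 to 3 leaving out 1 sample. The share of all genes is given above only for the scaling used here and 4 samples against 4. With fewer samples non-overlap is more common by chance, so these counts are descriptions.

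The ratio of *Oxt* in Fn14ko replicate 1 was 28.7 to 141 leaving out 1 sample. Pearson r with *Oxt* (12 samples) without the array of Fn14ko replicates 1 and 2 was 0.286 for *Avp*, −0.11 for *Pmch*, −0.36 for *Hcrt*, 0.0368 for *Trh*, 0.734 for *Cartpt*, 0.851 for *Pomc*, −0.43 for *Agrp* and −0.35 for *Gal*. After quantile normalization it was 0.571 for *Avp*, 0.652 for *Cartpt* and 0.155 for *Gal*. With the valid spots it was 0.576 for *Cartpt*, 0.664 for *Pomc* and 0.440 for *Crh*, and with the processed signal 0.608, 0.785 and 0.561. Without the array of MRL/lpr replicates 3 and 4 it was 0.641 for *Cartpt*, 0.778 for *Pomc* and 0.521 for *Crh*. The r of *Cartpt* was 0.666 with normexp, that of *Hcrt* 0.686 with the median over probes, and that of *Gal* 0.901 without the Cy5 samples. Leaving out 1 sample gave −0.28 to 0.189 for *Agrp*, 0.459 to 0.906 for *Avp*, 0.652 to 0.747 for *Cartpt*, 0.546 to 0.678 for *Crh*, 0.156 to 0.777 for *Gal*, 0.541 to 0.901 for *Hcrt*, 0.288 to 0.918 for *Pmch*, 0.667 to 0.778 for *Pomc* and 0.295 to 0.851 for *Trh*.

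Of the 44 calls of list genes that the naming rule covers, 17 were lost with no dye covariate, 16 after quantile normalization, 16 without the Cy5 samples, 12 with the valid spots, 9 with the median over probes, 8 with the replicate block, 7 without the array of MRL/lpr replicates 3 and 4, 3 with the processed signal, 1 with normexp and 0 with a floor of 10%. With the study's filter 10 of the 16 that could be tested were lost. Applied here to spots valid in all samples, that filter left 8864 genes, among them only *Cartpt* and *Gal* of the 10, so the others have no value there. The paper lists values for *Oxt*, *Avp* and *Pomc*, so this step does not reproduce its set of genes. When 1 sample was left out, the genes called in MRL/lpr against Fn14ko were 0 to 5 of 17 lower among receptors, 0 to 4 of 19 lower among transcription factors, 3 to 6 higher and 0 to 4 lower of 14 hippocampal, 4 to 11 of 12 striatal and 3 to 5 of 9 cortical lower, and 1 to 6 of 12 choroid plexus higher. Of all 29608 genes, 138 to 10493 were then called lower and 415 to 4287 higher. Weak signal over background limits the genes and samples named in the report as not well above background.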
